A study of Homo sapiens with 12 samples.

Results

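The glutathione peroxidases GPX1, GPX2, GPX3 and GPX4 and the peroxiredoxins PRDX1 to PRDX6 are enzymes that remove peroxides. They were taken by gene name from the deposited RNA-seq table of 58884 genes, and all 10 names were found. The samples were human liver cancer cells of the lines HCC-LM3, known for metastasis, and Huh-7, which is widely used as a hepatocyte-like model. The groups were HCC-LM3 cells infected with a guide RNA against METTL5 (KO) and untreated HCC-LM3 cells (WT), and Huh-7 KO cells and untreated Huh-7 cells (WT), with 3 libraries each. METTL5 is an enzyme that methylates an adenosine of ribosomal RNA. No control guide, clone, culture or batch is named in the labels, so METTL5 loss cannot be told apart from infection or clonal effects, and the p-values measure the spread between libraries that may be technical replicates.

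Glutathione peroxidases reduce peroxides with glutathione, and in GPX1 to GPX4 the active site carries selenocysteine, which is read from a UGA codon. Peroxiredoxins use a reactive cysteine instead, and most of them are reduced again by thioredoxin. In liver, GPX4 guards membrane lipids against peroxidation and ferroptosis, while PRDX1 and PRDX2 serve the cytosol, PRDX3 the mitochondria and PRDX4 the endoplasmic reticulum.

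On GRCh38 (GENCODE 29), GPX1 (ENSG00000233276) lies at chr3:49357171-49358600 and GPX2 (ENSG00000176153) at chr14:64939152-64942905, both on the minus strand. GPX3 (ENSG00000211445) lies at chr5:151020438-151028993 and GPX4 (ENSG00000167468) at chr19:1103926-1106791, both on the plus strand. Of the peroxiredoxins, PRDX1 (ENSG00000117450, chr1:45511036-45523047), PRDX2 (ENSG00000167815, chr19:12796820-12801859) and PRDX3 (ENSG00000165672, chr10:119167703-119178833) lie on the minus strand. PRDX4 (ENSG00000123131, chrX:23664262-23686399), PRDX5 (ENSG00000126432, chr11:64318088-64321811) and PRDX6 (ENSG00000117592, chr1:173477266-173488807) lie on the plus strand.

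The codon that separates the families can be read in the coding sequences. In the GENCODE 29 coding sequence of each gene on GRCh38, GPX1 to GPX4 had 1 in-frame TGA each before the stop codon and the 6 peroxiredoxins had 0. It was codon 49 of 203 in GPX1, codon 40 of 190 in GPX2, codon 73 of 226 in GPX3 and codon 73 of 197 in GPX4. The windows below are shown because they hold the selenocysteine codon, which is in capitals, and each lies within 1 coding exon and is read on its gene's own strand. They lie at chr3:49358120-49358146 on the minus strand (GPX1), chr14:64942595-64942621 on the minus strand (GPX2), chr5:151025457-151025483 on the plus strand (GPX3) and chr19:1105391-1105417 on the plus strand (GPX4).
GPX1: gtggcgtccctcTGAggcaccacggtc
GPX2: gtggcttcgctcTGAggcacaaccacc
GPX3: gtggccagctacTGAggcctgacgggc
GPX4: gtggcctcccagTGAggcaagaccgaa

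The antioxidant response element, the site of the factor NRF2, has the core TGACNNNGC. RefSeq promoters on GRCh38.p14 (250 bases before to 50 after a start) were available for 8 of the 10 genes, and the core, searched on both strands, was in 1 of those 8, GPX2, and in 13.3% of all 35116 promoters in the table. In GPX2 it lay on the strand opposite to the gene, 122 bases before the RefSeq start, within chr14:64942849-64942877. The GENCODE 29 gene given above begins farther upstream, so the window lies inside that gene's interval. The window is shown on the plus strand because GPX2 was one of the genes that separated the lines, and the capitals mark the core.
GPX2 promoter window: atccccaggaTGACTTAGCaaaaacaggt

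The 12 libraries held 17495280 to 26415554 counts. METTL5 was at 0 counts in all 6 KO libraries, against 268, 327 and 325 counts in HCC-LM3 WT and 237, 258 and 169 counts in Huh-7 WT. The hepatocyte markers ALB, AFP, APOA1, APOA2, APOB, TTR, SERPINA1 and HNF4A summed to 31.9 to 39.3 CPM (counts scaled to a common library size) in HCC-LM3 KO and 26.3 to 30.3 CPM in HCC-LM3 WT, with ALB, APOA2, APOB and TTR at 0 in KO and APOB, TTR and SERPINA1 at 0 in WT. In Huh-7 they summed to 23000 to 23870 CPM in KO and 13550 to 14590 CPM in WT. The liver origin therefore had marker support in Huh-7 and little in HCC-LM3. Markers of blood cells, endothelium and fibroblasts each summed to 105.1 CPM or less in every library. In HCC-LM3 the blood and macrophage sum, nearly all CD68 (54.8 CPM in KO, 41.2 CPM in WT), was above the hepatocyte sum, nearly all HNF4A (36.6 and 28.7 CPM). The epithelial markers KRT8, KRT18, EPCAM and CDH1 summed to 3013 to 3271 CPM in HCC-LM3 KO and 2259 to 2985 CPM in HCC-LM3 WT. Their sum was 35660 to 37220 CPM in Huh-7 KO and 11940 to 12020 CPM in Huh-7 WT. In bulk RNA, fewer cells of a type and less RNA per cell cannot be told apart. CPM values were scaled by trimmed means (TMM), with factors of 1.27 to 1.31 in HCC-LM3 KO, 1.33 to 1.51 in HCC-LM3 WT, 0.491 to 0.51 in Huh-7 KO and 1.06 to 1.10 in Huh-7 WT. The low factors of Huh-7 KO touch every CPM and TMM fold change given for it below. For the 10 genes the deposited TPM (transcript levels per length) or other scalings are given as well.

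Across genes, levels were compared per length, by TPM. The 10 genes summed to 5273 ± 115 TPM in HCC-LM3 KO, 5622 ± 204 TPM in HCC-LM3 WT, 6709 ± 82.3 TPM in Huh-7 KO and 5579 ± 412 TPM in Huh-7 WT (SD, n = 3 each). The 4 glutathione peroxidases made up 1444 ± 23.4 TPM of this in HCC-LM3 KO, 1441 ± 94 TPM in HCC-LM3 WT, 3799 ± 86.6 TPM in Huh-7 KO and 2664 ± 171 TPM in Huh-7 WT. The 6 peroxiredoxins summed to 3829 ± 99.5 TPM in HCC-LM3 KO, 4181 ± 118 TPM in HCC-LM3 WT, 2910 ± 4.85 TPM in Huh-7 KO and 2915 ± 241 TPM in Huh-7 WT. Peroxiredoxin RNA thus exceeded glutathione peroxidase RNA in every HCC-LM3 library and in the Huh-7 WT mean, and stood below it in every Huh-7 KO library.

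**Figure D1:**
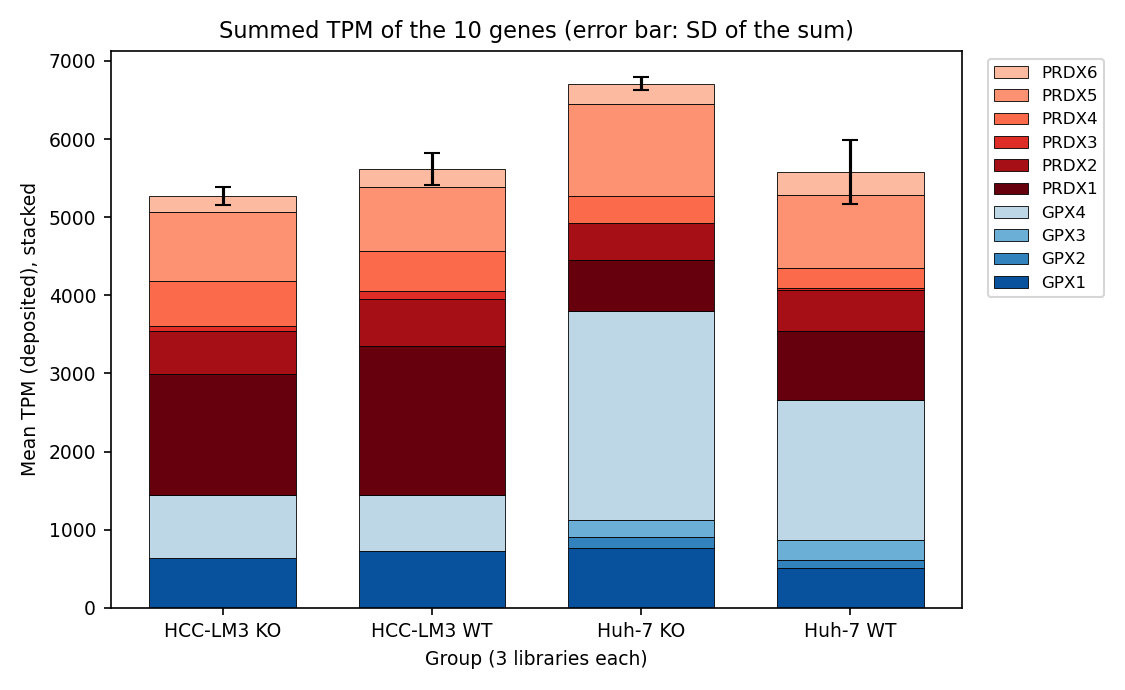
Mean deposited TPM of the 10 genes (vertical axis), stacked for each of the 4 groups of 3 libraries, with the SD of the sum as the error bar. The stacks of HCC-LM3 are led by PRDX1 and those of Huh-7 by GPX4, and GPX2 and GPX3 are visible in Huh-7 alone.

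The leading gene differed by line. PRDX1, the abundant cytosolic peroxiredoxin, ranked highest in HCC-LM3 and made up 29.3% ± 0.702 of the TPM of the 10 genes in HCC-LM3 KO and 34.1% ± 0.669 in HCC-LM3 WT, but 9.67% ± 0.546 in Huh-7 KO and 15.7% ± 0.517 in Huh-7 WT. GPX4, the lipid hydroperoxide reductase, ranked highest in Huh-7 with 39.9% ± 0.287 in KO and 32.3% ± 0.0772 in WT, and held 15.2% ± 0.391 in HCC-LM3 KO and 12.6% ± 0.383 in HCC-LM3 WT. The ratio of GPX4 to PRDX1 TPM was 0.521 ± 0.0257 in HCC-LM3 KO, 0.37 ± 0.018 in HCC-LM3 WT, 4.13 ± 0.258 in Huh-7 KO and 2.06 ± 0.0729 in Huh-7 WT. No range of this ratio overlapped that of another group, and in each line it was higher in KO by TPM. In Huh-7 the gap nearly closed when each library's counts were adjusted for the length and GC content of genes (called the offsets), with a log2 fold change of 0.31 for GPX4 and 0.28 for PRDX1. The TPM ratio of GPX4 to GPX1, the cytosolic glutathione peroxidase, was 3.5 ± 0.0822 in Huh-7 KO and 3.53 ± 0.0629 in Huh-7 WT, with overlapping ranges, and 1.26 ± 0.0434 in HCC-LM3 KO and 0.969 ± 0.0389 in HCC-LM3 WT, without overlap.

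**Figure D2:**
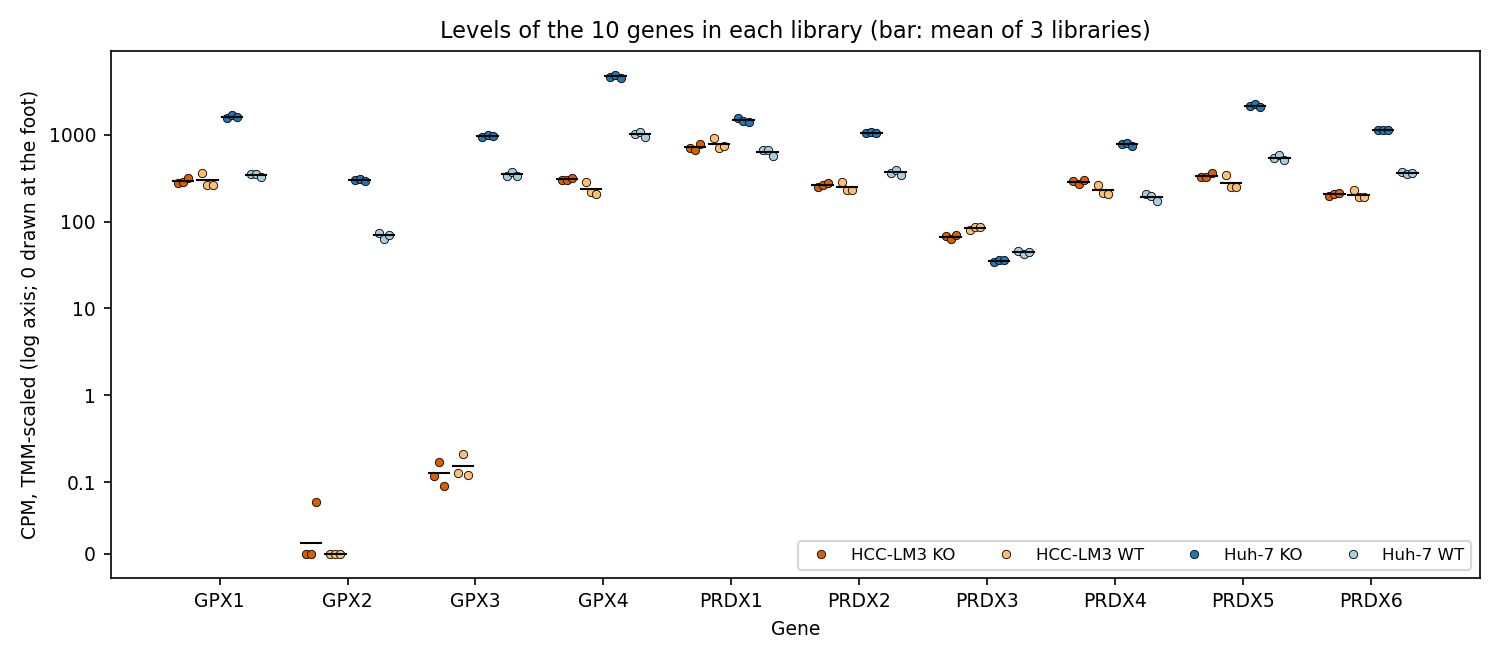
TMM-scaled CPM (log axis, with 0 drawn at the foot) of each gene in each library, with KO left of WT in each line and a bar at the mean of 3 libraries. GPX2 and GPX3 lie near 0 in HCC-LM3, and the Huh-7 KO points lie above the Huh-7 WT points for 9 genes and below them for PRDX3.

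The wild-type lines were compared first, to show where each gene stood before METTL5 was targeted. A pair of glutathione peroxidases had the widest gaps of the 10 genes: GPX2, which is typical of gut epithelium, and GPX3, the secreted plasma form, were close to absent from HCC-LM3 and well expressed in Huh-7. GPX2 had 0 counts in each HCC-LM3 WT library, against 2030, 1431 and 1395 counts in Huh-7 WT. Set against a floor of 3 counts per library, HCC-LM3 WT was at least 783.1-fold lower. GPX3 had 4, 8 and 4 counts in HCC-LM3 WT, against 9249, 8465 and 6611 counts in Huh-7 WT, and was 2280-fold lower by CPM (95% counting interval 1374 to 3903, which covers counting error only). The KO groups stood apart as well: GPX2 had 0, 0 and 2 counts in HCC-LM3 KO, against 3055, 2672 and 2642 counts in Huh-7 KO, and GPX3 had 4, 5 and 3 counts in HCC-LM3 KO, against 9517, 8456 and 8707 counts in Huh-7 KO. Neither gene's values overlapped between the lines in either genotype. Of all genes tested, 41.8% lay wholly above and 40.8% wholly below in HCC-LM3 WT against Huh-7 WT by CPM. No such share was computed between the KO groups.

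Between the wild-type lines, 9 of the 10 genes passed the test, 3 higher and 6 lower in HCC-LM3, against 82.8% of the 16537 genes tested, 41.8% higher and 41% lower. All tests are edgeR's quasi-likelihood test with Benjamini-Hochberg adjustment over these genes, at an adjusted p under 0.05. GPX4 had 282, 220 and 209 CPM in HCC-LM3 WT, against 1030, 1062 and 942 CPM in Huh-7 WT. It was 4.27-fold lower in HCC-LM3 WT (log2 difference −2.09, SE 0.11, adjusted p = 3.03e-18). With the offsets GPX4 was at −1.08 (adjusted p = 6.57e-15). PRDX3, the mitochondrial peroxiredoxin, was higher, with 79.7, 87.5 and 86.5 CPM in HCC-LM3 WT, against 45.6, 42.4 and 44.1 CPM in Huh-7 WT (log2 difference 0.94, SE 0.0877, adjusted p = 9.95e-12). PRDX6, which uses glutathione and also has phospholipase activity, was lower in HCC-LM3 WT at 231, 189 and 190 CPM, against 373, 353 and 366 CPM in Huh-7 WT (−0.84, SE 0.0964, adjusted p = 1.31e-09). For these 3 genes the groups did not overlap, as for most genes in this comparison (41.8% of those tested lay wholly above and 40.8% wholly below). Each of the 3 kept its direction and its call with library totals, DESeq2 size factors and the GC and length offsets.

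Others depended on the scaling or on 1 library. PRDX1 was higher in HCC-LM3 WT at 0.32 (SE 0.106, adjusted p = 0.00692). Leaving out Huh-7 WT replicate 3 ended that call (adjusted p = 0.0517). PRDX4 was higher at 0.25 (SE 0.102, adjusted p = 0.0276), and its call ended with DESeq2 size factors and with the offsets (0.03, adjusted p = 0.619), and without Huh-7 WT replicate 3. PRDX5, a peroxiredoxin of mitochondria, peroxisomes and cytosol, was lower at −0.96 (SE 0.111, adjusted p = 1.26e-09), and at −0.03 with the offsets (adjusted p = 0.627). The direction of PRDX2 and GPX1 turned. PRDX2 was lower at −0.55 (SE 0.0976, adjusted p = 4.61e-06) but higher at 0.27 with the offsets (adjusted p = 8.15e-05). GPX1 did not pass (−0.22, SE 0.11, adjusted p = 0.066), and was higher with library totals at 0.19 (adjusted p = 0.032) and with the offsets at 0.77 (adjusted p = 2.32e-12). Without HCC-LM3 WT replicate 1, GPX1 was lower at −0.34 (adjusted p = 7.77e-05).

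The next question was how the enzymes differed between METTL5 KO and WT in Huh-7. On the TMM scale 9 genes were higher in KO and PRDX3 was lower, and the groups did not overlap for any of the 10. Of all genes tested, 32.3% had every KO value above every WT value on that scale and 44.1% had every one below. By deposited TPM, which are not TMM-scaled, the same 10 genes split into 5 above WT (GPX1, GPX2, GPX4, PRDX4, PRDX5) and 5 below it (GPX3, PRDX1, PRDX2, PRDX3, PRDX6), again without overlap. Of all genes tested, 5.46% had every KO value above every WT value by TPM and 72.4% had every one below. All 10 genes passed the edgeR test, against 75% of all genes tested, 31.7% higher and 43.2% lower. The median gene stood at −0.30 on this log2 scale, and the median of the 10 genes was 1.81. Markers moved both ways beside them. Of the 8 hepatocyte markers, APOA1, APOA2, TTR and SERPINA1 averaged higher in Huh-7 KO, while ALB (286 CPM in KO, against 805 CPM in WT), AFP, APOB (54.5 CPM in KO, against 1030 CPM in WT) and HNF4A averaged lower. Of the 4 epithelial markers KRT8 and KRT18 averaged higher, and EPCAM and CDH1 lower. The part of the markers in these values was not tested.

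GPX1, GPX2, GPX4, PRDX4 and PRDX5 were higher in Huh-7 KO on each scale examined. GPX1 had 1558, 1695 and 1593 CPM in Huh-7 KO, against 356, 356 and 324 CPM in Huh-7 WT, and was 4.68-fold higher (log2 2.23, SE 0.114, adjusted p = 6.04e-18), above 97% of the genes tested. Its TPM were 730.3, 785 and 779 in KO, against 515, 537 and 478 in WT. GPX4 had 4648, 4891 and 4542 CPM in KO, against 1030, 1062 and 942 CPM in WT (log2 fold change 2.21, SE 0.111, adjusted p = 3.37e-18). Its TPM were 2624, 2725 and 2678 in KO, against 1797, 1936 and 1675 in WT. Every KO library thus stood above every WT library for both enzymes.

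GPX2 had 301, 311 and 290.1 CPM in Huh-7 KO, against 74.2, 62.6 and 70.6 CPM in Huh-7 WT (log2 fold change 2.12, SE 0.101, adjusted p = 4.06e-18). PRDX4, the peroxiredoxin of the endoplasmic reticulum, had 782, 802 and 737 CPM in KO, against 207, 198 and 174 CPM in WT (4.01-fold, SE 0.106 on the log2 scale, adjusted p = 1.17e-17). PRDX5 had 2132, 2229 and 2063 CPM in KO, against 538, 590 and 506 CPM in WT (1.98, SE 0.113, adjusted p = 8.01e-17). The size of these differences moved with the scaling. With library totals alone they were 1.12 for GPX1, 1.01 for GPX2, 1.10 for GPX4, 0.89 for PRDX4 and 0.86 for PRDX5. With the GC and length offsets they were 0.42, 0.70, 0.31, 1.24 and 0.16 in that order, and each still passed, with adjusted p from 1.06e-14 for PRDX4 to 0.0188 for PRDX5.

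**Figure D3:**
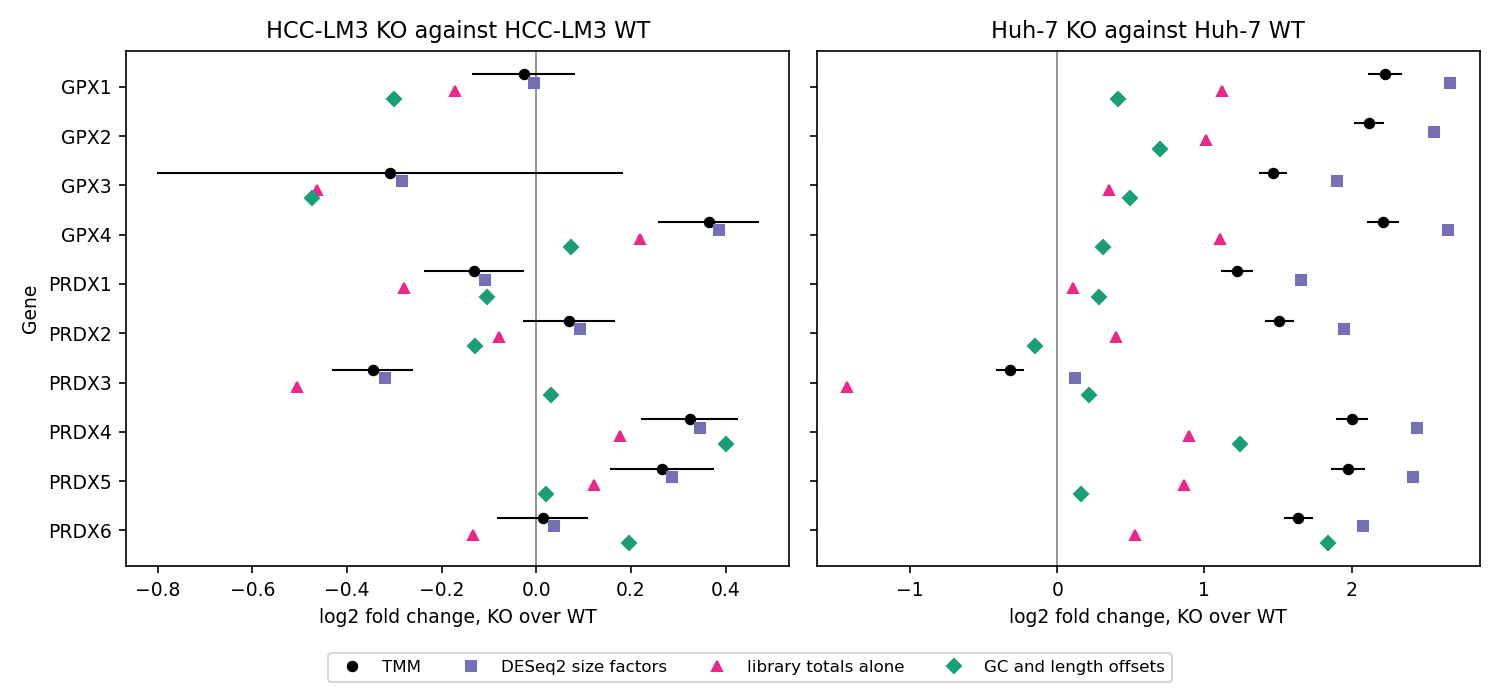
Log2 fold change, KO over WT, of each gene under 4 scalings, HCC-LM3 left and Huh-7 right (TMM with SE bars). GPX2 is left out for HCC-LM3, where it had 0 to 2 counts. In Huh-7 the TMM and DESeq2 points lie right of the library-total points, and PRDX2 and PRDX3 have points on both sides of 0.

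PRDX6, GPX3, PRDX2 and PRDX1 were higher by CPM and lower by TPM in Huh-7 KO. PRDX6 had 1138, 1133 and 1124 CPM in KO, against 373, 353 and 366 CPM in WT (log2 fold change 1.64, SE 0.098, adjusted p = 2.24e-16), and 1.84 with the offsets (adjusted p = 1.26e-13). Its TPM were 249, 257 and 261 in KO, against 303, 314 and 272 in WT. The groups did not overlap on either scale, and their order was opposite. GPX3 had 938, 984.5 and 956 CPM in KO, against 338, 370.3 and 335 CPM in WT (1.46, SE 0.0938, adjusted p = 1.25e-15), and 213, 221 and 229 TPM in KO, against 239.6, 273 and 244 TPM in WT. PRDX1 had 1552, 1438 and 1413 CPM in KO, against 663, 662 and 565 CPM in WT (1.22, SE 0.108, adjusted p = 3.88e-12), and with library totals its call ended at 0.11 (adjusted p = 0.203). PRDX2 had 1034, 1061 and 1036 CPM in KO, against 366, 388 and 347 CPM in WT (1.51, SE 0.0993, adjusted p = 2.51e-15) and turned to −0.15 with the offsets (adjusted p = 0.0205).

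PRDX3 was the only peroxiredoxin lower in Huh-7 KO with TMM and with library totals, but not on other scales: by TPM PRDX1, PRDX2 and PRDX6 were lower too, and with the offsets PRDX2 was the lower one. PRDX3 had 34.6, 35.6 and 35.7 CPM in KO, against 45.6, 42.4 and 44.1 CPM in WT, and 7.99, 8.1 and 8.56 TPM in KO, against 32.5, 32 and 32.2 TPM in WT. It fell by 0.32 on the log2 scale with TMM (SE 0.0947, adjusted p = 0.00297) and by 1.43 with library totals (adjusted p = 3.61e-11), but was at 0.12 with DESeq2 size factors (adjusted p = 0.282) and at 0.21 with the offsets (adjusted p = 0.0361). Relative to the median gene, the TMM difference was −0.02. The ratio of PRDX5 to PRDX3 TPM, both mitochondrial enzymes, was 144 ± 6.14 in Huh-7 KO and 28.7 ± 3.01 in Huh-7 WT, without overlap. With the offsets, however, the log2 fold change of PRDX5 was 0.16 and that of PRDX3 0.21, so the ratio was not higher in KO on that scale. Transcript GC content is lowest in PRDX3 (41.4%), PRDX6 (46.15%) and PRDX4 (48.7%) and highest in GPX4 (63.4%) and GPX1 (63.1%). The deposited gene length is 1553 bases for PRDX3, 1690 bases for PRDX6, 956 bases for PRDX4, 803 bases for GPX4 and 899 bases for GPX1. PRDX6 and PRDX4, of low GC content, were higher in Huh-7 KO with TMM, and PRDX3 was lower. With the offsets PRDX6 was at 1.84, PRDX4 at 1.24 and PRDX3 at 0.21, beside 0.31 for GPX4 and 0.42 for GPX1. The part of GC content and gene length in these directions was not tested.

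In HCC-LM3 the differences were smaller and fewer. GPX4 and PRDX4 rose and PRDX3 fell in KO on the TMM scale, so 3 of the 10 genes passed the test, against 26.8% of the genes tested (14% higher and 12.9% lower). GPX4 had 297, 300.4 and 317 CPM in HCC-LM3 KO, against 282, 220 and 209 CPM in HCC-LM3 WT (log2 fold change 0.36, SE 0.107, adjusted p = 0.0106). PRDX4 had 289.8, 269 and 300.1 CPM in KO, against 266, 211 and 209.8 CPM in WT (0.32, SE 0.102, adjusted p = 0.0172). PRDX3 had 67.5, 62.7 and 69.4 CPM in KO, against 79.7, 87.5 and 86.5 CPM in WT (−0.35, SE 0.0857, adjusted p = 0.00296). For each of the 3 genes no KO value reached into the WT range on this scale, where 20.5% of all genes tested lay wholly above and 18.2% wholly below, so a share of 3 in 10 is no larger than the background. The groups did not overlap by TPM for these 3 genes either.

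Each call ended under some alternative. With the GC and length offsets GPX4 was at 0.07 (adjusted p = 0.393) and PRDX3 turned to 0.03 (adjusted p = 0.841), while PRDX4 held at 0.40 (adjusted p = 2.9e-05). With library totals PRDX4 was at 0.18 (adjusted p = 0.075). Without KO replicate 3, WT replicate 2 or WT replicate 3, PRDX3 alone passed, and without KO replicate 1 the call of PRDX4 ended (adjusted p = 0.0751). WT replicate 1 had a higher CPM than the other two WT libraries for 7 of the 10 genes, PRDX3, GPX2 and GPX3 being the exceptions. Without it PRDX5 also passed, at 0.43 (adjusted p = 3.38e-05).

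The other members of the set did not pass in HCC-LM3. PRDX5 was closest at 0.27 (SE 0.11, adjusted p = 0.071), and passed with limma-voom. PRDX1 was at −0.13 (SE 0.106, adjusted p = 0.395), and passed with library totals at −0.28 (adjusted p = 0.0118). GPX1 was at −0.03 (SE 0.109, adjusted p = 0.912), and passed with the offsets at −0.30 (adjusted p = 0.000266). PRDX2 was at 0.07 (adjusted p = 0.659) and PRDX6 at 0.01 (adjusted p = 0.965). GPX3, with 3 to 8 counts per library, was at −0.31 (SE 0.493, adjusted p = 0.719), and no difference was detectable at this depth. By TPM, 2 of the 10 genes had every KO value above WT (GPX4, PRDX4) and 5 had every one below (GPX1, PRDX1, PRDX2, PRDX3, PRDX6), against 11% and 23% of the genes tested. PRDX1 had 1529, 1486 and 1622 TPM in HCC-LM3 KO, against 1969, 1857 and 1918 TPM in HCC-LM3 WT.

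The difference between the KO effects of the lines was tested as an interaction, in which the Huh-7 effect was subtracted from that of HCC-LM3. On the TMM scale 8 of the 10 genes had a lower effect in HCC-LM3, against 61.6% of all genes tested with a difference in either direction, 37.7% higher and 23.9% lower. The median gene had an interaction of 0.39. GPX1 had the largest difference of the 8, −2.25 (SE 0.157, adjusted p = 4.27e-14), followed by GPX4 at −1.85 (SE 0.151, adjusted p = 1.64e-12). The smallest was that of PRDX1, −1.35 (SE 0.151, adjusted p = 1.71e-09). PRDX3 did not pass at −0.03 (SE 0.128, adjusted p = 0.919), and was at −0.44 with DESeq2 size factors (adjusted p = 0.00463) but at 0.92 with library totals (adjusted p = 1.27e-06). GPX2, with 0 to 2 counts per HCC-LM3 library, gives no measure of this difference. With the offsets 5 of the 8 genes passed, against 7934 of the 16537 genes tested, 3921 higher and 4013 lower. These 5 were PRDX6 at −1.65 (adjusted p = 2.04e-10), PRDX4 at −0.84 (adjusted p = 6.61e-09), GPX1 at −0.72 (adjusted p = 2.02e-08), PRDX1 at −0.39 (adjusted p = 0.000144) and GPX4 at −0.24 (adjusted p = 0.0131). PRDX2 turned to 0.02 with them (adjusted p = 0.87).

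The same fit was read for 65 other redox genes in 7 lists: glutathione, thioredoxin and selenoprotein synthesis genes, on which the enzymes depend, and other selenoproteins, other glutathione peroxidases, superoxide dismutases with catalase, and oxidative folding genes. In Huh-7 KO, 54 of the 62 tested passed, 28 higher and 26 lower, against 75% of all genes tested, 31.7% higher and 43.2% lower. Their median log2 fold change was 0.10 beside −0.30 for all genes. In HCC-LM3 KO, 21 of the 62 passed, 9 higher and 12 lower, against 26.8% of all genes tested, 14% higher and 12.9% lower. Their median there was −0.08 beside 0.00 for all genes. With library totals the split was 13 higher and 40 lower in Huh-7 KO, and 7 higher and 23 lower in HCC-LM3 KO. Of the 16537 genes tested, 1996 were higher and 10794 lower in Huh-7 KO on that scale, and 1199 higher and 3424 lower in HCC-LM3 KO. The median gene was then at −1.40 in Huh-7 KO and at −0.12 in HCC-LM3 KO.

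**Figure D4:**
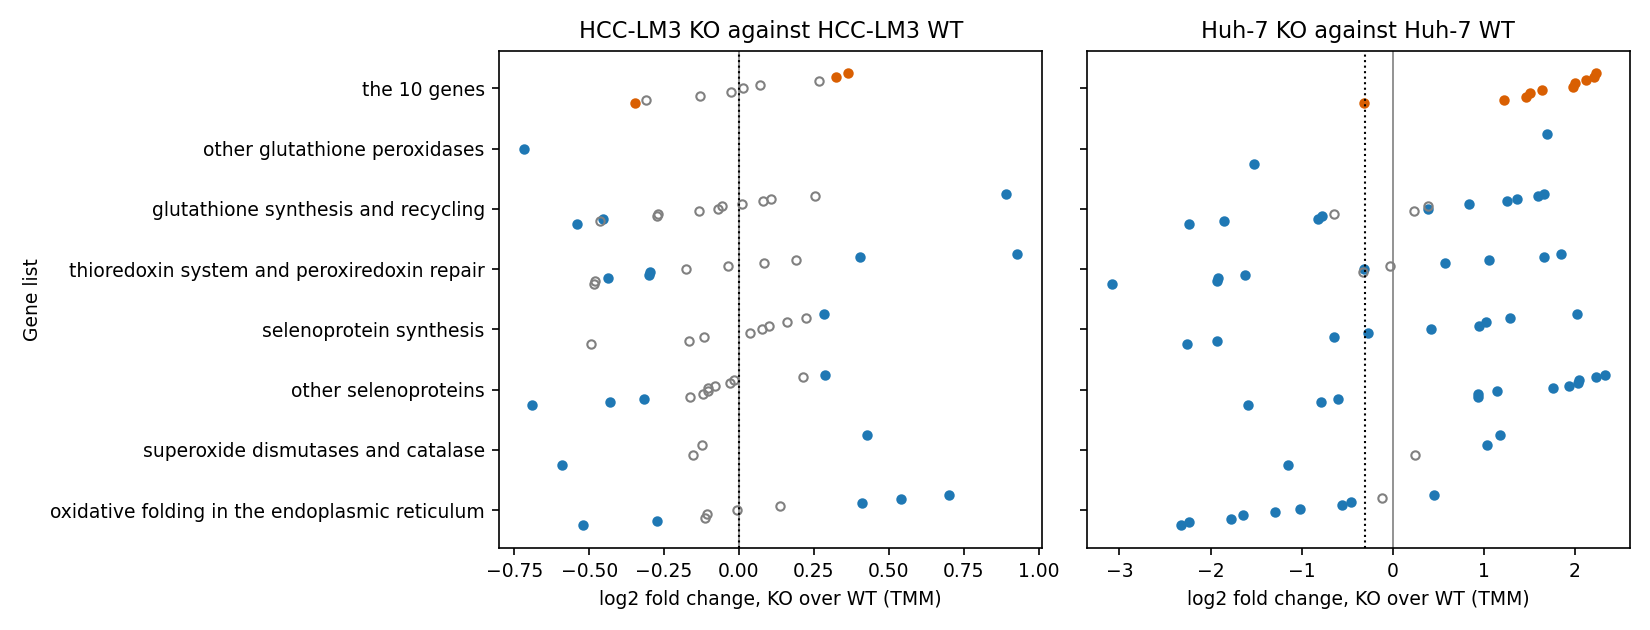
Log2 fold change (TMM), KO over WT, of the 10 genes (top row, orange where the test was passed) and of 7 lists of other redox genes (blue where it was passed), HCC-LM3 left and Huh-7 right. Open grey points did not pass. The dotted line is the median of all genes, and genes under 0.1 CPM in both groups, with GPX2 in HCC-LM3, are left out. In Huh-7 the other selenoproteins lie mostly right of the line and the oxidative folding genes mostly left of it on this TMM scale.

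The list of other selenoproteins, which share the UGA codon, had 9 higher and 3 lower of 12 tested in Huh-7 KO (median 1.45). The split was 8 higher and 2 lower with the offsets (median 0.46, beside 0.00 for all genes). It was 6 higher and 4 lower with library totals (median 0.34, beside −1.40 for all genes). The selenoproteins TXNRD1, TXNRD2, TXNRD3 and SEPHS2 were counted in other lists. Of these, TXNRD1 (−1.92) and SEPHS2 (−0.27) were lower in Huh-7 KO, TXNRD2 (1.05) was higher and TXNRD3 (−0.33) did not pass. SELENOM, a protein of the endoplasmic reticulum, averaged 704 ± 41.4 CPM in Huh-7 KO and 140 ± 5.55 CPM in Huh-7 WT (log2 fold change 2.33, adjusted p = 5.99e-19; 0.34 with the offsets). SELENOW averaged 249 ± 8.59 CPM in KO and 52.9 ± 1.95 CPM in WT (2.23, adjusted p = 5.57e-19; 0.59 with the offsets), and SELENOK, at 2.05, was 2.18 with the offsets. The 9 genes of selenoprotein synthesis split into 5 higher and 4 lower in Huh-7 KO, and into 1 higher and 6 lower with library totals (median −0.69, beside −1.40 for all genes). TRNAU1AP, which binds the selenocysteine tRNA, rose by 2.03 (adjusted p = 9.77e-17), by 0.92 with library totals and by 1.99 with the offsets. SECISBP2, which binds the selenocysteine insertion element, fell by 1.93 (adjusted p = 2.95e-12), and by 0.46 with the offsets (adjusted p = 0.0153). In HCC-LM3 KO, 1 of the 12 tested in the list of other selenoproteins was higher and 3 were lower, among them SELENOI at −0.69 (adjusted p = 7.5e-05). EEFSEC alone of the synthesis genes passed there, at 0.29 (adjusted p = 0.0372), a call that ended with library totals and with the offsets.

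The thioredoxin system, which reduces the peroxiredoxins, had 4 genes higher and 5 lower of 11 in Huh-7 KO (median −0.32). The balance turned with DESeq2 size factors, to 5 higher and 4 lower (median 0.12, beside 0.00 for all genes). It was 2 higher and 8 lower with library totals (median −1.43, beside −1.40 for all genes). TXN, thioredoxin itself, which was chosen after its values were seen, averaged 311 ± 15.5 CPM in Huh-7 KO and 86.3 ± 8.4 CPM in Huh-7 WT (log2 fold change 1.85, adjusted p = 5.99e-17), and was at 0.74 with library totals and 1.80 with the offsets. TXNRD1, the cytosolic thioredoxin reductase, averaged 38.2 ± 4.69 CPM in Huh-7 KO and 145 ± 12.8 CPM in Huh-7 WT (log2 fold change −1.92, adjusted p = 5.88e-17), and was at −0.68 with the offsets (adjusted p = 5.38e-09). In HCC-LM3 KO 2 of the 11 were higher and 3 lower. SRXN1, which repairs overoxidized peroxiredoxins, fell by 0.44 there (adjusted p = 0.000411), and SESN2, a stress-responsive sestrin, rose by 0.93 (adjusted p = 1.94e-05). Both held their direction and call with library totals, DESeq2 size factors and the offsets.

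The glutathione genes had 6 higher and 4 lower of 13 in Huh-7 KO (median 0.39), and 3 higher and 9 lower with library totals (median −0.72, beside −1.40 for all genes). GCLC, the catalytic subunit of glutathione synthesis, averaged 3.65 ± 0.531 CPM in Huh-7 KO and 13.2 ± 0.231 CPM in Huh-7 WT (−1.86, adjusted p = 2.84e-12), and was at −1.06 with the offsets (adjusted p = 1.89e-06). SLC7A11, the cystine importer, averaged 1.38 ± 0.311 CPM in KO and 6.46 ± 0.313 CPM in WT (−2.24, adjusted p = 2.14e-10), but was at 0.52 with the offsets (adjusted p = 0.0734). In HCC-LM3 KO, 1 was higher and 2 were lower of 13. CHAC1, which degrades glutathione, averaged 10.9 ± 0.956 CPM in HCC-LM3 KO and 5.87 ± 0.787 CPM in HCC-LM3 WT (0.89, adjusted p = 3.8e-05).

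Oxidative folding in the endoplasmic reticulum makes the peroxide that PRDX4 removes. Of its 10 genes, 1 was higher and 8 were lower in Huh-7 KO (median −1.15). With the offsets 2 were higher and 4 lower (median −0.15, beside 0.00 for all genes). With library totals all 10 were lower (median −2.26, beside −1.40 for all genes), on a scale where 10794 of the 16537 genes tested were lower. PDIA3, a disulfide isomerase, averaged 27.9 ± 4.99 CPM in Huh-7 KO and 140 ± 21.6 CPM in Huh-7 WT (−2.33, adjusted p = 6.71e-18), and was at −1.48 with the offsets (adjusted p = 3.64e-09). In HCC-LM3 KO 3 were higher and 2 lower, with QSOX1, a sulfhydryl oxidase, at 0.70 (adjusted p = 1.54e-06).

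Of the other glutathione peroxidases, GPX5 and GPX6 were at 0 CPM in every group. GPX7, an enzyme of the endoplasmic reticulum, had 0 counts in all 6 HCC-LM3 libraries and averaged 49.6 ± 1.34 CPM in Huh-7 KO and 15.4 ± 1.21 CPM in Huh-7 WT (log2 fold change 1.69, adjusted p = 4.29e-13), with 0.58 by library totals and 0.57 by the offsets. GPX8, its relative, was nearly the reverse by line: it averaged 11.7 ± 1.07 CPM in HCC-LM3 KO, 19.2 ± 0.859 CPM in HCC-LM3 WT, 0.257 ± 0.172 CPM in Huh-7 KO and 0.73 ± 0.201 CPM in Huh-7 WT. It fell by 0.72 in HCC-LM3 KO (adjusted p = 0.000216), a call that ended with the offsets (−0.34, adjusted p = 0.0729). Of the 5 superoxide dismutase and catalase genes, 2 were higher and 1 lower in Huh-7 KO (1 higher and 3 lower with the offsets), and 1 was higher and 1 lower in HCC-LM3 KO. CAT, catalase, fell in both lines, by 0.59 in HCC-LM3 KO (adjusted p = 0.000298) and by 1.15 in Huh-7 KO (adjusted p = 8.29e-09), and held its direction and call under the 3 other scalings.

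Genes with the most similar pattern were found by Pearson's r of log2(CPM + 0.5) over the 12 libraries, which share their scaling and fall into 4 groups, so r is a description. GPX3 was closest to TTR, a plasma protein of hepatocytes, and to TMEM176B (r = 0.9999 each). GPX2 was closest to LINC01419 and to the metallothionein MT1F (r = 0.9998 each). GPX4 was closest to OAZ1 (r = 0.9996), GPX1 to PPIB (r = 0.999), PRDX2 to RPS19 (r = 0.9994), PRDX4 to RPL7A (r = 0.9983), PRDX5 to CFL1 and PRDX6 to GSTK1 (r = 0.9995 each). PRDX1 was closest to NDUFS5 (r = 0.9963) and PRDX3 to MOB1A (r = 0.995). Among the members themselves, GPX1 and PRDX2 had r = 0.985, while GPX1 and PRDX3 had r = −0.781.

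Some counts could hold reads of other genes. GPX1 counts were not whole in all 12 libraries, and the separate counts of its named pseudogenes came to at most 3.46% of the GPX1 count. The counts of PRDX1 were not whole in 12 libraries, those of PRDX2 in 9 and those of PRDX3 in 1. GPX2 overlaps CHURC1 and PRDX1 overlaps MMACHC on the other strand, and PRDX2 overlaps HOOK2 on the same strand. These 3 partners averaged 8.67 to 37.9 CPM over the groups. In HCC-LM3, where GPX2 had 0 to 2 counts, CHURC1 averaged 14 ± 0.795 CPM in KO and 20.1 ± 1.52 CPM in WT. In Huh-7 CHURC1 averaged 37.9 ± 0.39 CPM in KO and 8.67 ± 0.775 CPM in WT, so it was higher in KO, as GPX2 was. The part of shared reads in the GPX2 counts was not tested.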

How the data were processed

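Total RNA from 12 libraries was sequenced on an Illumina NovaSeq, per the labels' protocols. The authors deposited expected counts and TPM for 58884 genes, per the file headers, with a gene length. The deposited expected counts are not normalized, and 7.49% to 13.3% of a library's values are not whole. The deposited TPM are the authors' length-scaled values. The submitters' processing notes name Bowtie 0.12.2 and, as builds, mm8 and mm9, which are mouse builds and do not go with human Ensembl identifiers. Not given in the sources used here are the human build, the annotation, the counting tool and whether it used strand, so shared or antisense reads cannot be told apart.

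Rounded counts entered edgeR 4.0.16 (R 4.3.3), with filterByExpr with the 4 groups (16537 genes), TMM scaling, and a robust quasi-likelihood fit of 1 mean per group to all 12 libraries (8 residual degrees of freedom). Two-sided p-values were adjusted by Benjamini-Hochberg across the genes tested, and a call is an adjusted p under 0.05. SE came from the F statistic. With 3 libraries against 3, an exact permutation test cannot go below p = 0.1. Group differences of TPM, shares and ratios are therefore descriptions.

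Alternatives were DESeq2 1.42.0 size factors and Wald test, library totals, limma-voom (limma 3.58.1), other filters (none; at least 1 CPM in 3 libraries), each line alone, a replicate block, per-library spline offsets for GC content and gene length, an adjusted p under 0.01, a log2 fold change of 1 or more in size, TMM-scaled RPKM in place of TPM, and leaving out each library. GC content (GENCODE 29, GRCh38) was known for 16480 tested genes (99.7%). The fit was tested on simulated data in which few genes were changed, as many up as down. That test therefore does not bear on the scaling of Huh-7 KO.

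The 10 genes, the lists and the tests were chosen with earlier results of these data known. The naming rule took all 10 members, METTL5, up to 3 called members per list and comparison with the largest fold and at least 1 CPM (some are left out of the text), and the 2 genes closest to each member in pattern, of which mostly 1 is given. TXN, GPX5, GPX6 and genes that overlap a member were named in addition.

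Samples with the same replicate number did not deviate together: the correlations of their deviations from group means were −0.215 to 0.134, so the numbers were not taken as pairs.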

Additional observations from a re-analysis of the deposited data

Results flagged for a closer look

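For 8 genes the KO effect differed between the lines in the interaction test of edgeR (log2 scale, HCC-LM3 effect minus Huh-7 effect, n = 3 libraries per group). The difference was −2.25 for GPX1 (effects −0.03 in HCC-LM3 and 2.23 in Huh-7, adjusted p = 4.27e-14), −1.85 for GPX4 (0.36 and 2.21, adjusted p = 1.64e-12), −1.71 for PRDX5 (0.27 and 1.98, adjusted p = 1.99e-11) and −1.68 for PRDX4 (0.32 and 2.0, adjusted p = 6.07e-12). It was −1.62 for PRDX6 (0.01 and 1.64, adjusted p = 2.97e-12), −1.44 for PRDX2 (0.07 and 1.51, adjusted p = 6.41e-11) and −1.35 for PRDX1 (−0.13 and 1.22, adjusted p = 1.71e-09). The difference of −1.77 for GPX3 (adjusted p = 0.00344) rests on 3 to 8 counts per HCC-LM3 library, and its call ended under library totals (−0.82, adjusted p = 0.171) and under the offsets (−0.97, adjusted p = 0.128). The median gene had a difference of 0.39 on the same scale, and 1.32 with library totals.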

How the results depend on the processing

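A value recomputed for a single member was counted as kept if it stayed on its side of the threshold and, where it passed, kept its direction. A turn between values that both did not pass thus counted as kept. Kept were 174 of 188 values in HCC-LM3, 205 of 210 in Huh-7, 173 of 180 for the interaction and 184 of 200 between the wild-type lines. With GC and length offsets the direction turned for PRDX3 (0.032) and PRDX2 (−0.13, passing in neither fit) in HCC-LM3 KO, and for PRDX2 (−0.15) and PRDX3 (0.21) in Huh-7 KO. It also turned for the PRDX2 interaction (0.023), and for GPX1 (0.77) and PRDX2 (0.27) between the wild-type lines. With the offsets 5 members had an interaction in place of 8, and 7934 genes in place of 10186. With DESeq2 size factors and with the DESeq2 Wald test PRDX3 in Huh-7 KO was at 0.12 in each. With library totals the PRDX3 interaction was 0.92 and GPX1 between the wild-type lines 0.19. In HCC-LM3 KO, 3 members and 4440 genes passed, and at an adjusted p under 0.01 1 member and 2622 genes. At a log2 fold change of 1 or more in size, 0 members, 0 of the 21 other redox genes and 282 genes passed there. In the interaction 8 of 8 members and 31 of 48 other redox genes passed at that size, against 7631 of 10186 genes. Between the wild-type lines 3 of 9 members and 35 of 59 other redox genes passed at that size, against 9573 of 13685 genes. Leaving out 1 library in turn gave 1 to 4 members, 15 to 32 other redox genes and 2743 to 6136 genes in HCC-LM3 KO. By TMM-scaled RPKM, 9 members averaged higher in Huh-7 KO, against 5 by TPM. These RPKM divide the TMM-scaled CPM by 1 length per gene, so their direction is that of the CPM and adds no separate check. The median gene of Huh-7 KO was at −0.30 with TMM, 0.00 with DESeq2 size factors and −1.40 with library totals. A replicate block gave 3 members and 3988 genes in HCC-LM3 KO and 10 members and 12250 genes in Huh-7 KO, and changed no member's call. The causes were not tested. Depth limits GPX2 and GPX3 in HCC-LM3.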

Other observations

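SOD2, the mitochondrial superoxide dismutase that makes the peroxide PRDX3 and PRDX5 remove, averaged 81.8 ± 2.75 CPM in HCC-LM3 KO and 90.8 ± 6.87 CPM in HCC-LM3 WT, but held 0 to 1.12 counts per library in Huh-7 KO and 0 to 2.57 counts in Huh-7 WT. SOD3, the secreted form, was the reverse by line, with 0 to 2 counts in HCC-LM3 KO, 0 in HCC-LM3 WT, 26 to 42 counts in Huh-7 KO and 56 to 76 counts in Huh-7 WT. The SOD2 values come from a single entry of that name, and its counts were not whole, so reads may be shared with another entry. Whether another entry held SOD2 reads in Huh-7 was not examined, so its absence there is not settled. SELENOP, the plasma selenium carrier, averaged 5.16 ± 0.347 CPM in HCC-LM3 KO, 5.26 ± 0.227 CPM in HCC-LM3 WT, 809.5 ± 72.6 CPM in Huh-7 KO and 198 ± 12 CPM in Huh-7 WT. LRP8, a receptor that takes up SELENOP, ran the other way, with 97.8 ± 3.26 CPM in HCC-LM3 KO, 95.4 ± 6.37 CPM in HCC-LM3 WT, 9.59 ± 1.4 CPM in Huh-7 KO and 14.9 ± 0.723 CPM in Huh-7 WT. In Huh-7 KO against WT, SELENOP was at 2.03 with TMM, 0.92 with library totals and 2.85 with the offsets (log2), and LRP8 at −0.64, −1.75 and 0.39 in that order. Between the wild-type lines, SELENOP was lower in HCC-LM3 (log2 difference −5.23, adjusted p = 9.55e-29, edgeR) and LRP8 was higher (2.68, adjusted p = 1.72e-22), under each of the scalings with library totals, DESeq2 size factors, and GC and length offsets as well.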
